A study of Mus musculus with 8 samples.

Results

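The cells described here were taken from single-cell libraries of the mouse dentate gyrus by a rule on hippocampal astrocyte genes, and 2270 of the 24376 cells that passed the filters met it (9.31%). A cell passed with over 500 genes and under 10% mitochondrial transcripts. A member had to carry transcripts of at least 3 of 5 astroglial genes (Aldoc, Slc1a3, Slc1a2, Gja1 and Ntsr2). At least 0.1% of its unique molecular identifiers (UMIs, each a counted transcript) had to come from S100b, Aqp4, Gjb6, Grin2c and Hsd11b1 together. It could carry at most 1 of 8 genes of other cell types (Mog, Mag, Mobp, Cx3cr1, Cldn5, Pdgfra, Stmn2 and Eomes) and at most 2 of 10 cell-cycle genes. The cells were thus chosen by their UMI counts for these genes, whose levels are a description. These genes stayed among those tested below, and nothing is read from calls on them.

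Astrocytes are the glia that enclose synapses and vessels. They take up glutamate and potassium, couple to each other through gap junctions, hold water channels at the vessel wall and make cholesterol and apolipoprotein E. In the dentate gyrus they share many genes with the neural stem cells, which are also astroglial.

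All libraries came from Ki67TD-NES mice, in which a Nestin transgene drives GFP and a Ki67-driven creERT2 switches on a tdTomato reporter in dividing cells. Tamoxifen was given by gavage (100 mg/kg, 6 daily doses), the mice were culled on day 8, and each experiment pooled 2 to 5 animals of both sexes. A single experiment used mice aged 1 month, while 3 used mice of 2 months and 3 mice of 6–8 months (6 months in the labels). The dentate gyrus was dissected, dissociated with enzymes and sorted by GFP and tdTomato, so the gate can set how many astrocytes entered. The label of 1 library also names GFP-negative cells. For the first 2-month experiment there were 2 libraries, one labelled GFP+tdT- and the other GFP+tdT+ and GFP-tdT-. The 2-month libraries used Version 2 of the 10x chemistry and the others Version 3, so 2 months and Version 2 cannot be told apart. Library totals were 26464703 UMIs at 1 month. At 2 months they were 9397048 for the tdT- library of the first experiment, 4938419 for its other library, 9637578 and 4861883. At 6–8 months they were 13739260, 22621305 and 43826338.

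The 1-month library gave 245 members. The first 2-month experiment gave 379 from the tdT- library and 444 from the other, and the others gave 215 and 69. The 6- to 8-month-old mice gave 78, 338 and 502. As a share of passing cells, members were 7.61% ± 3.92 at 6–8 months and 9.60% ± 8.73 at 2 months (SD, n = 3 experiments each). The difference of −1.99 percentage points lay within the spread between experiments (two-sided exact permutation test, p = 0.80, where 3 against 3 cannot go below 0.10). It was 4.47 points in the other direction with a limit of 0.05% in place of 0.1% (exact permutation p = 1.0). For astrocyte-like members the shares were 2.56% ± 0.461 at 6–8 months and 8.84% ± 8.72 at 2 months, a difference of −6.28 points (exact permutation p = 0.20). The difference for all members was −0.213 points without the library labelled GFP+tdT+ and GFP-tdT-, in which 28.8% of passing cells were members against 14.3% in the tdT- library of the same day. The sort can set these shares. The libraries shared 59 barcode sequences, and no such sequence was a member in more than 1 library (0 cases).

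The members did not all carry the profile that the label names. Of the 2270 members, 764 (33.7%) had transcripts of 3 or more of 8 markers of oligodendrocyte precursor cells (Pdgfra, Cspg4, Olig1, Olig2, Sox10, Vcan, C1ql1 and Lhfpl3), and 618 of these had all 8. Pdgfra is the receptor for platelet-derived growth factor, and Olig1, Olig2 and Sox10 are transcription factors of the oligodendrocyte lineage. The split at 3 markers was chosen after these counts had been seen, and few members lay near it, with 89 at 2 markers, 11 at 3 and 3 at 4. Nearly all of the 764 reached the limit through S100b, which 99.6% of them carried, and 713 had no UMI of the other 4 genes of the limit. Aqp4 was found in 4.19% of them, Gjb6 in 2.23%, Grin2c in 1.31%, Hsd11b1 in 3.40% and Gja1 in 4.19%. Among the remaining 1506 members, the corresponding shares were 68.4% for Aqp4, 71.4% for Gjb6, 41.7% for Grin2c, 62.7% for Hsd11b1 and 94.6% for Gja1. Olig1 stood at 3430 to 4367 CPM (counts scaled to the same total in each sum) over the 7 experiments in the first set and at 71.8 to 176 CPM in the second.

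The share of members with 3 or more precursor markers differed greatly between libraries. It was 26.5% at 1 month. At 2 months it was 8.44% and 0.676% in the libraries of the first experiment, 4.19% in the second and 31.9% in the third. At 6–8 months it was 30.8%, 69.5% and 74.5%. The 2 deepest libraries of 6- to 8-month-old mice thus held mostly such cells, while the 2-month experiments held few except for the third. Pooled over all libraries, these cells had a median of 7564 UMIs against 2264 in the other members. Within the experiments the gap was smaller, with medians of 7465 against 5621.5 at 1 month. At 2 months the medians were 2875 against 2081.5, 1622 against 1102.5 and 1903 against 1761. At 6–8 months they were 5016.5 against 2694.5, 7165 against 4344 and 8461 against 6101. The limit itself ran through the cells with 3 or more precursor markers. Of the 50 members just inside it (0.1001% to 0.102% of UMIs), 42 had 3 or more precursor markers, and of the 50 cells just outside it (0.0977% to 0.09998%) 37 did. Results are therefore given for all members and for the 1506 with under 3 precursor markers, called astrocyte-like members below.

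**Figure D1:**
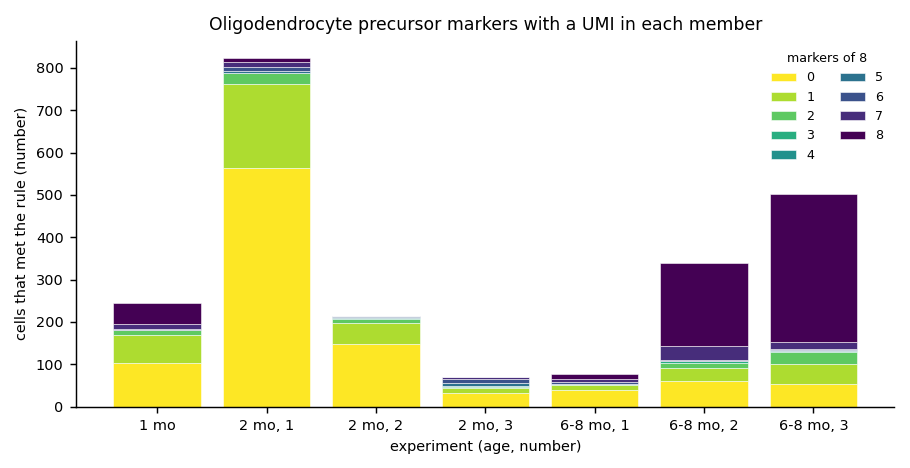
Number of cells that met the rule in each of the 7 experiments (bars), divided by how many of the 8 oligodendrocyte precursor markers had a UMI in the cell (colour). Cells with all 8 markers fill most of the bars of experiments 2 and 3 at 6–8 months and little of those at 2 months.

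Of the 5 astroglial genes of the rule, Gja1 and Ntsr2 stood highest at 2 months in astrocyte-like members, while Aldoc overlapped between all ages. Levels are CPM of the UMIs summed over the members of an experiment, and since 3′ libraries count each transcript once they need no correction for length. Aldoc (chr11:78322968-78327781, GRCm38), the brain aldolase, stood at 6194 CPM at 1 month, at 5926, 6888 and 6102 at 2 months and at 5755, 6324 and 6001 at 6–8 months. Slc1a2, the main glutamate transporter of astrocytes (chr2:102658659-102790784), ranged from 4009 to 6156 CPM with a median of 5564. Slc1a3, the other glial glutamate transporter, ranged from 2835 to 3827 CPM. Gja1, which encodes the gap junction protein connexin 43 (chr10:56377330-56402513), stood at 1505 CPM at 1 month, at 2366, 2941 and 2553 at 2 months and at 1666, 1559.9 and 1325 at 6–8 months. Its 3 values at 2 months were the highest, and those at 1 month and 6–8 months overlapped. Ntsr2, a neurotensin receptor, followed the same order at 1254 CPM at 1 month, 1918 to 2389 at 2 months and 1044 to 1501 at 6–8 months.

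The 5 genes of the limit summed to 2483 CPM at 1 month, to 3057, 2826 and 2835 at 2 months and to 2338, 2106 and 2263 at 6–8 months in astrocyte-like members. Hsd11b1, which regenerates active glucocorticoid (chr1:193221634-193264075), varied least, from 635 to 738 CPM. Aqp4, the water channel of astrocyte endfeet, was at 877 CPM at 1 month, at 653, 417 and 454 at 2 months and at 635, 516 and 674 at 6–8 months. Gjb6, which encodes connexin 30 (chr14:57123303-57133611), stood at 369.7, then 729, 667 and 487, then 384.5, 313 and 439 CPM in the same order. Grin2c, an NMDA receptor subunit, ranged from 142 to 368 CPM. S100b, a calcium-binding protein (chr10:76253853-76261159), was at 377 CPM at 1 month and 302 to 397 at 6–8 months, against 753 to 790 at 2 months. In the members with 3 or more precursor markers S100b was higher, at 1208 to 1757 CPM. In the other cells that passed, it averaged 236 CPM, which is the lowest contrast among the 5 genes.

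**Figure D2:**
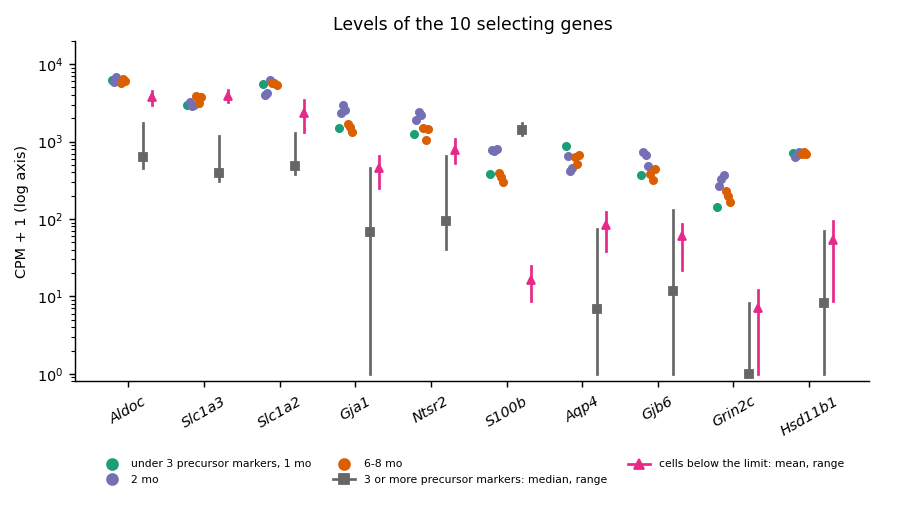
Levels (CPM + 1, log axis) of the 10 genes by which the rule selects: 1 point per experiment for astrocyte-like members, coloured by age, the median and range over experiments for members with 3 or more precursor markers (grey) and the mean and range for cells that met all but the 0.1% limit (pink). S100b is the 1 gene for which the grey range lies above the points, and for the other 9 it lies below them.

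Genes that the rule did not use describe the astrocyte-like members further. All 36 genes of a list of other astrocyte markers had a UMI in at least 20% of these cells, and 35 of the 36 were higher than in the remaining cells that passed in all 7 experiments. Of 1861 genes detected to that extent, 658 were. The members were selected against those cells, so no test is given. The summed level of the list was 40200 to 45561 CPM in astrocyte-like members. It was 7730 to 9896 CPM in the members with 3 or more precursor markers. It was 15252 to 27236 CPM in 2349 cells that met all but the 0.1% limit and had under 3 precursor markers, which are called below-limit cells here. The mean level of Hopx, a marker of dentate stem cells, was 3633 CPM in those cells.

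The 20 genes with the highest ratio to all other cells were led by transporters. Slc39a12, a zinc transporter, had a mean log2 ratio of 5.66 ± 0.69 (SD over 7 experiments, after adding 1 CPM) and a level of 283 ± 65.3 CPM. Slc4a4, the sodium bicarbonate cotransporter, had a ratio of 5.43 ± 0.32 and a level of 808 ± 252 CPM. Aifm3 followed at 5.15 ± 0.41, Cyp4f15 at 5.07 ± 0.43 and Aldh1l1, the folate enzyme widely used as an astrocyte marker, at 5.02 ± 0.57. Agt, which encodes angiotensinogen, Prodh, the first enzyme of proline breakdown, and S1pr1, a receptor for sphingosine 1-phosphate, lay between 4.72 and 4.84. Phkg1, Cldn10, Lcat, Fgfr3, Fam107a, Chst1, Clu, Hapln1, Lgi4 and Slc7a10 had ratios of 4.49 to 4.69, and Atp13a4 and Fam20a stood at 4.75 and 4.64. In all members, the same rule named 15 of these 20 and the ratios of its 20 genes were 3.46 to 4.73, with Cxcl14, F3, AI464131, Chchd10 and Acsbg1 in place of the others. Against below-limit cells, the ratios of the 20 genes in astrocyte-like members were 1.35 to 3.47. The highest were those of Atp13a4 at 3.47 ± 0.90 and Aifm3 at 2.99 ± 0.73. Slc4a4 stood at 2.79 ± 0.76, with 511 to 1064 CPM in members.

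**Figure D3:**
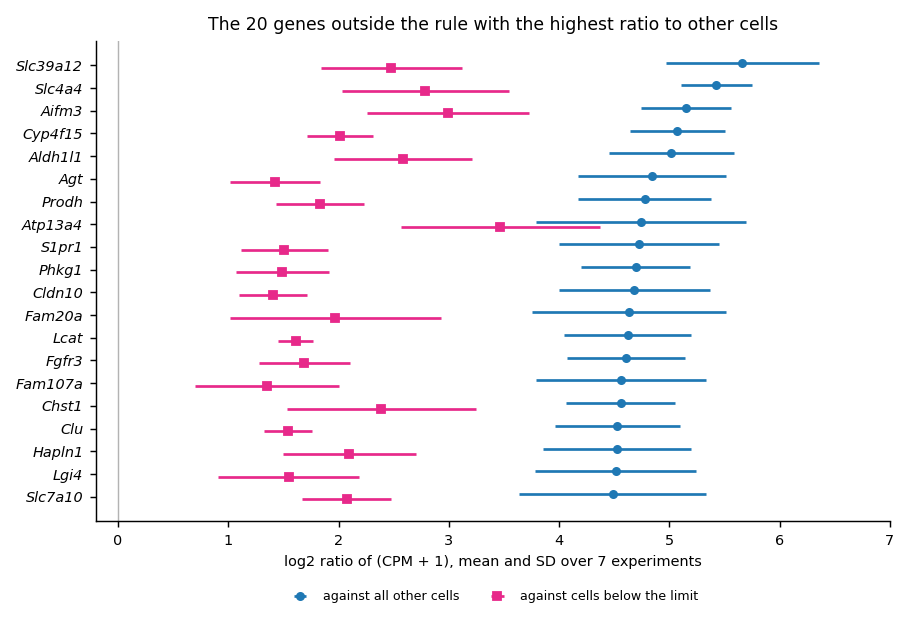
Log2 ratio of (CPM + 1) in astrocyte-like members to all other cells (circles) and to below-limit cells (squares) for the 20 genes outside the rule with the highest ratio to other cells, as mean and SD over 7 experiments. All 20 lie above 0 in both, and the ratio to below-limit cells is the smaller for each.

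The functional groups are described by how many of their genes were higher in astrocyte-like members, with no test between groups. Over all 1861 detected genes, 490 were higher and 478 lower than in below-limit cells in 7 of 7 experiments, against 658 higher and 491 lower than in other cells. Of 13 detected genes for glutamate and GABA handling, 11 were higher than in other cells in 7 of 7 experiments. Against below-limit cells, 8 were higher in 7 of 7. Slc1a2 and Slc1a3 of this list are genes of the rule, so these counts were in part set by the selection. Glul, glutamine synthetase, stood at 2130 to 3397 CPM against a mean of 905 in below-limit cells, and Slc6a11, a GABA transporter, at 372 to 642 against 207. Slc1a3 went the other way, with 3860 CPM in below-limit cells. Of 15 detected genes for ions and water, 14 and 12 were higher in 7 of 7. Aqp4 of this list is a gene of the rule's limit, so its part in both counts was set by the selection. Kcnk1, a potassium leak channel, had 119 to 209 CPM against 9.10. Kcnj10, the inward rectifier used for potassium uptake, did not follow, with 119 to 287 CPM against 208. Of 17 detected genes of glycolysis and glycogen, 14 and 13 were higher in 7 of 7. Among them were Ldhb at 1137 to 1899 CPM against 610.4 and Pfkp, a phosphofructokinase, at 78.6 to 162 against 9.13. Aldoc, also of this list, is a gene of the rule, and its level was in part set by the selection. Both genes of gap junctions that were detected to this extent, Gja1 and Gjb6, were used by the rule.

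Of 13 detected genes for lipid carriers and fatty acids, 10 were higher than in other cells in 7 of 7 experiments. Against below-limit cells, 9 were higher and 1 was lower in 7 of 7. Apoe was the most abundant, with 48790 CPM at 1 month, 30887, 34231 and 30369 at 2 months and 36546, 40341 and 37393 at 6–8 months, against a mean of 21427 in below-limit cells. Of 13 detected genes of cholesterol synthesis, 8 and 9 were higher in 7 of 7, with Msmo1 at 427 to 855 CPM against 173 in below-limit cells. Of 10 detected synapse-related secreted factors, 7 and 8 were higher, and 1 was lower than in below-limit cells in 7 of 7. The higher ones included Sparcl1 at 2066 to 4438 CPM against 1514 and Bcan, the brevican core protein, at 890 to 1706 against 279.

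Some of the remaining groups also held genes that were lower in astrocyte-like members than in below-limit cells beside genes that were higher. Of 4 detected genes of a stem cell list, 3 were lower than in below-limit cells in 7 of 7 experiments, as were 478 of the 1861 genes. Fabp7, the fatty acid binding protein of radial glia, averaged 957 against 1953 CPM, Dbi 3850 against 5722 and Hopx 2105 against 3633. Ednrb, an endothelin receptor gene, was the 1 gene of the 4 that was higher in 7 of 7. Of 12 detected genes of the Notch, Wnt and BMP pathways, 3 were higher and 2 lower. Notch2 stood at 142 to 336 CPM against a mean of 473, while Id2 stood at 232 to 1071 against 228. Of 6 detected immediate early and stress genes, 3 were lower in 7 of 7, with Jun at 118 to 548 CPM against 1108 and Jund at 152 to 747 against 1083. Mt1, a metallothionein, was the most abundant of that list and was higher, with 8744 to 17094 CPM against 6924. Of 38 genes of reactive astrocytes, 1 was detected in at least 20% of cells, which was Gfap at 331 to 714 CPM against 494, and 4 genes of the list, among them Lcn2, had no UMI in any experiment. Of 26 interferon and MHC genes, 3 were detected to this extent, of which 2 were higher than in below-limit cells in 7 of 7 experiments and none was lower, and B2m was the most abundant.

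Markers of other cell types were given by list in astrocyte-like members. The 10 oligodendrocyte markers summed to 260 CPM at 1 month, to 389, 2880 and 779 at 2 months and to 391, 302 and 347 at 6–8 months, with Cnp as the most abundant by mean, and 125 of the 1506 cells (8.30%) had 3 or more of them. The second 2-month experiment stood apart. The 10 microglial markers summed to 36.9 CPM at 1 month, to 398, 65.4 and 1039 at 2 months and to 54.9, 54.4 and 70.6 at 6–8 months. Cx3cr1, Csf1r, C1qa, C1qb, C1qc, Tmem119 and Tyrobp were at 0 at 1 month and in all 3 experiments at 6–8 months. The 8 mural markers summed to 91.5 to 431 CPM, led by Vtn, the 10 neuronal markers to 54.9 to 135, led by Prox1, and the 8 choroid and ependymal markers to 163 to 779, led by Rarres2. The 8 endothelial markers summed to 184 CPM in the second 2-month experiment and to at most 13.9 in the others, and the 6 progenitor markers to at most 90.0.

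Among astrocyte-like members of the same experiment, the spread of transcript counts was compared after 1188 cells with at least 1500 UMIs had each been thinned to 1500, which left out 318 shallower cells and kept 35 and 29 cells in the second and the third 2-month experiment. The Fano factor, the variance over the mean, has a value near 1 for counting error alone, and its median over 2370 genes was 1.04. Malat1, a nuclear RNA, had the highest mean value at 54.8 ± 28.5 (SD over 7 experiments). Among protein-coding genes found in nearly every cell, Cst3, the cystatin C gene, had 16.4 ± 3.18, Apoe 7.71 ± 1.88, Mt1 4.85 ± 1.03, Slc1a2 4.53 ± 2.44, Clu 3.71 ± 1.01 and Mt3 3.20 ± 0.52. Other genes were found in part of the cells in some or all experiments. Fos had a Fano factor of 4.57 ± 1.66 and a UMI in 13.0% of thinned cells on average (5.71% to 26.5% by experiment), and Id3 had a Fano factor of 2.88 (1.62 to 5.17) and a UMI in 23.9% (13.7% to 37.8%). Fabp7 had 2.45 ± 1.01 and 55.6% (38.2% to 76.1%), and Hopx 2.47 ± 1.33. Hopx was found in 29.8%, 48.6% and 27.6% of thinned cells at 2 months, against 93.9% at 1 month and 100%, 89.2% and 91.1% at 6–8 months. The 5 genes of the rule's limit lay lower, from 1.19 ± 0.15 for Grin2c to 1.69 ± 0.68 for Hsd11b1. The high values of Vtn and Ccl4 came with UMIs in 1.22% and 0.662% of the cells.

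The reporters were read in the same cells. At 1 month, 64.4% of astrocyte-like members had an eGFP UMI. At 2 months these were 27.4% of the 347 cells in the tdT- library of the first experiment, 24.8% in the second experiment and 29.8% in the third. At 6–8 months they were 40.7%, 37.9% and 42.2%. Depth differed between the experiments, with medians of 5622 UMIs in astrocyte-like members at 1 month and 1103 in the second 2-month experiment. With each cell thinned to 1500 UMIs, eGFP was found in 35.6% at 1 month, in 23.3%, 40.0% and 24.1% at 2 months, with the first again for the tdT- library alone, and in 35.6%, 19.6% and 23.6% at 6–8 months, so that the ages overlapped. Few cells were that deep in some experiments, with 35 and 29 in the second and the third at 2 months. In the library labelled GFP+tdT+ and GFP-tdT-, only 0.907% of 441 astrocyte-like members had one, at a median depth of 1973 UMIs against 2244 in the tdT- library of the same day. The shares in the other libraries were all above this one. Since its label names another sort, with GFP-negative cells, its free eGFP RNA may differ from that of the other libraries, and whether the sort was as labelled was not tested, so 0.907% is not a measure of their background. The eGFP level averaged 297 CPM in astrocyte-like members and 1303 CPM in below-limit cells. The transcript of the intact tdTomato locus was found in 88.7% of astrocyte-like members. By the study's limits for a recombined locus, 2 such astrocyte-like members were found at 1 month. The experiments held 10, 2 and 0 at 2 months and 1, 2 and 1 at 6–8 months. Of the 10, 9 came from the library labelled GFP+tdT+ and GFP-tdT- (2.04% of its astrocyte-like members). The tdT- library of the same day held 1 (0.288%). The 0 of 47 cells allows a share of up to 6.38% of cells past these limits, for counting error only, and says nothing of recombined cells whose reporter UMIs fell below them.

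The age of the mice was compared between 6–8 months and 1 month, which share the Version 3 chemistry. The experiment was the replicate, and counts were summed over its members and tested with edgeR's quasi-likelihood method at a Benjamini-Hochberg adjusted p under 0.05. With 1 experiment at 1 month, the spread came from the other ages. In all members, none of 5789 genes passed (0%), with 726 at an unadjusted p under 0.05 and 3 genes called by DESeq2. That count was 341 without the first experiment at 6–8 months, 27 without the third at 2 months, 24 with Version 3 libraries alone and 152 with no detection filter. In astrocyte-like members 8 of 3740 genes passed (0.214%), 4 higher and 4 lower at 6–8 months, and DESeq2 called 2.

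C4b rose most clearly. It encodes a component 4 protein of the complement cascade (chr17:34728380-34743882, minus strand). In astrocyte-like members it stood at 27.2 CPM at 1 month, at 42.8, 49.1 and 43.3 at 2 months and at 97.7, 124 and 153 at 6–8 months. The ages did not overlap, and the gene had a UMI in 11.1% of cells at 1 month and in 31.6% at 6–8 months. The log2 fold change was 2.26 ± 0.34 (SE) with an adjusted p of 0.00161 by edgeR. Against 2 months it was 1.48 ± 0.25 with an adjusted p of 0.000239. Below-limit cells had 9.42 CPM at 1 month and 28.8, 16.3 and 33.6 at 6–8 months, and the difference between the changes of the 2 classes did not pass (0.79 ± 0.44, adjusted p = 0.65). Among all members C4b fell short of the detection filter and was not tested.

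AC149090.1, a gene known here only by its annotation name, had 36.9 CPM at 1 month and 201, 124 and 212 at 6–8 months. Its log2 fold change was 2.26 ± 0.36 with an edgeR adjusted p of 0.00174. The 2-month experiments, at 130.2, 127 and 75.7 CPM, reached into the range of the older ones. Nrbp2, a pseudokinase gene, had 25.2 CPM at 1 month and 85.4, 69.6 and 97.2 at 6–8 months. At 2 months it had 92.0, 131 and 108 CPM, so the 1-month experiment was low and the other ages overlapped. Gm11681, a long intergenic noncoding RNA, had 38.8 CPM at 1 month and 85.4, 109 and 159.8 at 6–8 months, and its 2-month values of 67.1, 53.2 and 32.5 lay below these.

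Id3 and Fabp7 fell. Id3, an inhibitor of helix-loop-helix factors that responds to BMP signals (chr4:136143497-136145755), had 788 CPM at 1 month and 226, 148 and 337 at 6–8 months. All 3 older experiments lay below the 1-month one, and the 2-month ones at 509, 196 and 335 overlapped with them. Its log2 fold change was −1.70 ± 0.33 with an edgeR adjusted p of 0.0164. Fabp7 (chr10:57784881-57788450) had 1917 CPM at 1 month, 893, 753 and 628 at 2 months and 1080.3, 579 and 849 at 6–8 months. Its log2 fold change was −1.22 ± 0.25 with an adjusted p of 0.022. In below-limit cells Fabp7 stood at 3338 CPM at 1 month and at 2055, 1777 and 1831 at 6–8 months. Plat, which encodes tissue plasminogen activator, and Tnc, which encodes the matrix protein tenascin C, were low throughout and were named after their values had been seen. Plat had 60.2 CPM at 1 month and 6.10, 10.9 and 14.6 at 6–8 months, and Tnc had 56.3 and then 24.4, 15.2 and 7.99.

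**Figure D4:**
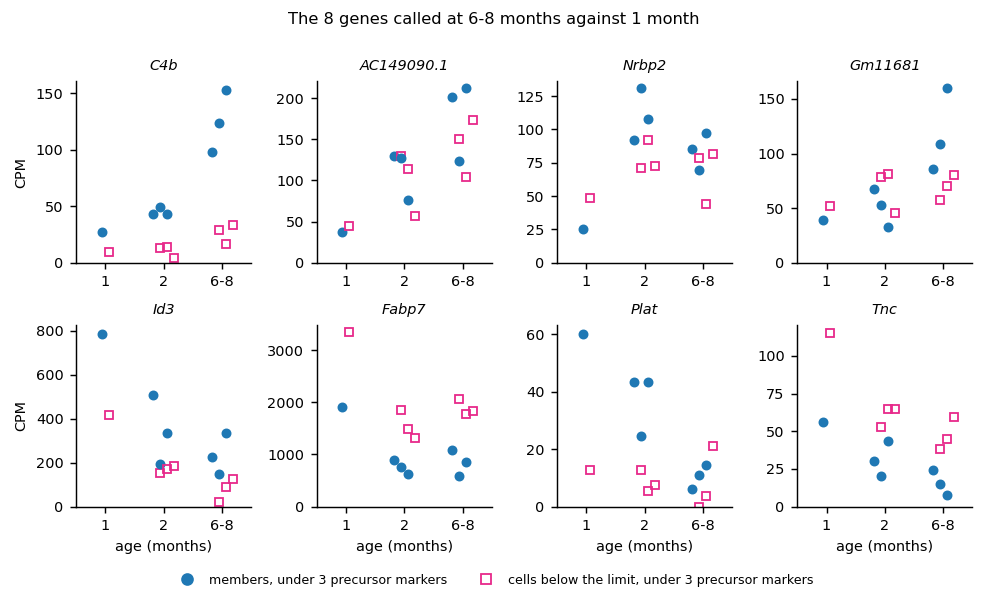
Levels (CPM) of the 8 genes called between 6–8 months and 1 month, by age, with 1 filled circle per experiment for astrocyte-like members and 1 open square for below-limit cells. C4b in members lies at 27.2 CPM at 1 month, 42.8 to 49.1 at 2 months and 97.7 to 153 at 6–8 months, and Id3 and Fabp7 are highest at 1 month.

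These calls rest on a single pool of 1-month-old mice. Their number was lower in some other settings and higher in others, as given in the last section. Groups of 1 and 3 experiments did not overlap in 24.6% of genes in the higher and in 23.6% in the lower direction. C4b and AC149090.1 passed in each of 14 other settings. The other 6 lost their call in 4 to 6 settings each. Without the first experiment at 6–8 months the edgeR adjusted p of Id3 was 0.0589, and without the second it was 0.0954. That of Fabp7 was 0.107 without the second and 0.151 without the third. Plat, Tnc and Gm11681 stood at 0.0656 without the second, and at 0.125, 0.489 and 0.346 without the third. Nrbp2 had 0.0589, 0.0656 and 0.267 without the first, the second and the third.

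With 0.214% of genes called between 6–8 months and 1 month, lists of this size would hold few calls or none, and nothing particular to a list is read from their counts. The median log2 change over all genes tested was 0.0029. The 1 called gene among 6 tested of the reactive list was C4b, and the list's median was 0.015. Among 15 tested lipid carrier genes and among 7 of the stem cell list, Fabp7 was the 1 call, with medians of −0.037 and −0.30. Id3 was the 1 call among 36 astrocyte markers (median 0.18) and among 16 genes of the Notch, Wnt and BMP pathways (median 0.17). None of 17 cholesterol genes passed, although their median was −0.60. None passed among 15 genes of glutamate and GABA handling (median 0.11), 16 of ions and water (−0.0012), 21 of glycolysis and glycogen (−0.037), 16 secreted synaptic factors (−0.024), 7 interferon and MHC genes (0.027) or 11 immediate early and stress genes (0.043). None passed among 5 filament and reporter genes (−0.43), 81 ribosomal protein genes (−0.17) or 13 mitochondrial genes (0.14).

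Between 6–8 months and 2 months, age cannot be told apart from the chemistry. In all members 1955 of 5631 genes passed (34.7%), 1025 higher (18.2%) and 930 lower (16.5%). Scaling by total UMIs in place of TMM gave 1759 higher and 432 lower. The share of members with 3 or more precursor markers moved with this contrast (30.8% to 74.5% against 4.19% to 31.9%), and its part in the result was not tested. The log2 change in all members was 5.17 ± 0.43 for Eid2 and 5.03 ± 0.41 for Pou3f1, a POU transcription factor gene. It was 3.84 ± 0.33 for Gria3, a glutamate receptor subunit gene. Each of these genes had a value in 13 of 17 other settings, and none is given here for astrocyte-like members. In astrocyte-like members 480 of 3261 genes passed (14.7%), 262 higher (8.03%) and 218 lower (6.69%), against 104 and 143 by DESeq2. The experiments of both ages did not overlap in 18.3% of genes in the higher and 11.3% in the lower direction. Of the 1955 genes, 338 were among these 480. Among called genes with at least 50 CPM and no overlap between the ages, Gm42418 and AY036118, whose loci hold ribosomal RNA sequence, had the largest positive changes (5.72 ± 0.30 and 4.90 ± 0.63).

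Several of these genes stood at 1 month near where they stood at 6–8 months. Hopx, a homeodomain gene, had 287, 327 and 259.7 CPM at 2 months, 4065, 3165 and 3159 at 6–8 months and 3474 at 1 month. Its log2 change was 3.48 ± 0.19 with an edgeR adjusted p of 5.24e-13. Mt2, a metallothionein, had 4892, 4581 and 5161 CPM at 2 months against 1059.5 to 1330.5 at 6–8 months and 1412 at 1 month (−2.06 ± 0.17, adjusted p = 2.87e-09). B2m, the light chain of MHC class I, had 318, 278 and 303 CPM at 2 months against 107 to 113 at 6–8 months and 108 at 1 month (−1.53 ± 0.21). The same held for Id2, with 900 to 1071 CPM at 2 months, 232 to 363 at 6–8 months and 393 at 1 month. Insig1, a brake on cholesterol synthesis, had 238 to 372 CPM at 2 months, 67.1 to 116 at 6–8 months and 120.3 at 1 month. In these genes both ages with Version 3 lay apart from the 2-month experiments. For C4b, the 1-month value, from a single experiment, lay below those at 2 months, and those at 6–8 months lay above them. The part of chemistry in C4b was not tested.

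The counts by list that follow are descriptions beside 8.03% higher and 6.69% lower over all genes, and nothing particular to a list is read from them. Of 13 mitochondrial genes 7 were higher and 2 lower, with a median log2 change of 0.85, and of 81 ribosomal protein genes 5 were higher and 19 lower. The part of RNA quality or chemistry in the changes of other genes was not tested. By list, 5 of 9 tested immediate early and stress genes were higher at 6–8 months than at 2 months and 1 was lower. Dusp1, a phosphatase induced by stress, had a log2 change of 1.49 ± 0.35 (edgeR adjusted p = 0.0049), although its experiments overlapped between the ages and it lost its call in 5 of 14 other settings. Of 6 tested genes of the reactive list, C4b, H2-D1 (1.16 ± 0.25) and Vim (1.11 ± 0.29) were higher. Of 5 interferon and MHC genes, H2-D1 and H2-K1 were higher and B2m lower. Of 15 lipid carrier genes, 3 were higher, led by Acadl, a fatty acid dehydrogenase (1.45 ± 0.22). Of 14 cholesterol genes, Insig1 (−1.67 ± 0.23), Fdft1 (−0.78 ± 0.23) and Dhcr7 (−0.98 ± 0.30) were lower and none was higher. Insig1 kept its call in 14 of 14 other settings, while Fdft1 lost it in 7 of 14 and Dhcr7 in 6 of 12. Of 36 astrocyte markers, 2 were higher and 5 lower, among them Slc4a4 (0.81 ± 0.16) and Slc7a10, an amino acid transporter (−0.87 ± 0.18). Of the 480 calls, 5 were on genes by which the rule selects, and 475 (262 higher and 213 lower) were on others. Of 11 secreted synaptic factors 2 were higher and 2 lower, with Ncan at −1.39 ± 0.22. Of 14 genes of the Notch, Wnt and BMP pathways 2 were higher, such as Fzd2 (1.42 ± 0.24), and 3 lower. Both tested oligodendrocyte markers were lower. Cnp had a change of −0.65 ± 0.22, which lost its call in 10 of 14 other settings, and RNA of that list was highest in the second 2-month experiment. Its part in the result was not tested.

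The change between 1 month and 6–8 months was then compared between astrocyte-like members and below-limit cells of the same libraries, with the experiment as a block. The difference between the 2 changes passed in 46 of 4389 genes (1.05%), and it was negative in 43 (0.98%) and positive in 3 (0.0684%). Of the 46, 4 were genes by which the rule divides these classes (Gjb6, Hsd11b1, Grin2c and Gja1), for which the test has no meaning, and 42 were others, of which 39 were negative. Of the list of 36 other astrocyte markers, 5 were among the 39, none was positive and 31 did not pass. The below-limit cells themselves differed between the ages, with 19964 CPM of that list at 1 month and 27236, 24689 and 25186 at 6–8 months. In astrocyte-like members that sum was 43575 and then 45561, 44768 and 43781. The 5 genes of the limit summed to 176 CPM in below-limit cells at 1 month and to 294, 269 and 320 at 6–8 months. In astrocyte-like members they summed to 2483 CPM and then 2338, 2106 and 2263. The part of these shifts in the single genes and in counts by list was not tested. Slc4a4 had 1002 CPM in members at 1 month and 964, 999 and 1064 at 6–8 months. In below-limit cells it had 63.7 CPM at 1 month and 221, 215 and 222 at 6–8 months, and the difference of the changes was −1.75 ± 0.19 (edgeR adjusted p = 7.44e-08). Glul had 2130 CPM and then 2515 to 2954 in members, against 474 and then 980.3 to 1214 in below-limit cells (−0.77 ± 0.18, adjusted p = 0.021). Gpr37, a receptor also found in oligodendrocytes, had 109 CPM and then 113 to 150.1 in members, against 13.8 and then 42.6 to 70.0 (−1.85 ± 0.35). Aldh1a1, a retinaldehyde dehydrogenase, had 144 CPM and then 61.0 to 98.5 in members. In below-limit cells it had 2.40 and then 1.92 to 14.2 (−2.74 ± 0.52). It lost its call in 3 of 12 other settings, over which the difference ran from −3.66 to −1.03.

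Further astrocyte genes that passed were Tril (−0.88 ± 0.20), the sodium pump subunit gene Atp1b2 (−0.74 ± 0.18), the glutamine transporter gene Slc38a3 (−1.46 ± 0.31) and Slc6a11 (−0.72 ± 0.19). Over 12 other settings each, Tril and Slc38a3 lost their call in 3 and Atp1b2 and Slc6a11 in 5. Glul lost its call in 4 of 12. Below-limit cells shifted with age as given above, and nothing particular to a list is read from the count that follows. Of 17 tested genes of glutamate and GABA handling, these calls on Slc38a3, Glul and Slc6a11 were the 3 that passed, all negative, beside 0.98% of all genes, with a list median of −0.33 against 0.0072 over all genes. The 3 positive genes were Epha5, an ephrin receptor gene (1.33 ± 0.29), Gm11681 (1.26 ± 0.31) and AC160336.1 (0.93 ± 0.24), which lost their call in 4, 6 and 8 of 12 settings. Epha5 had 48.5 CPM in members at 1 month and 195, 107 and 94.5 at 6–8 months, and 158 and then 154, 141 and 151 in below-limit cells. Without the experiment as a block none of the 4389 genes passed, with 101 at an unadjusted p under 0.05. Without the third experiment at 6–8 months 12 genes passed.

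**Figure D5:**
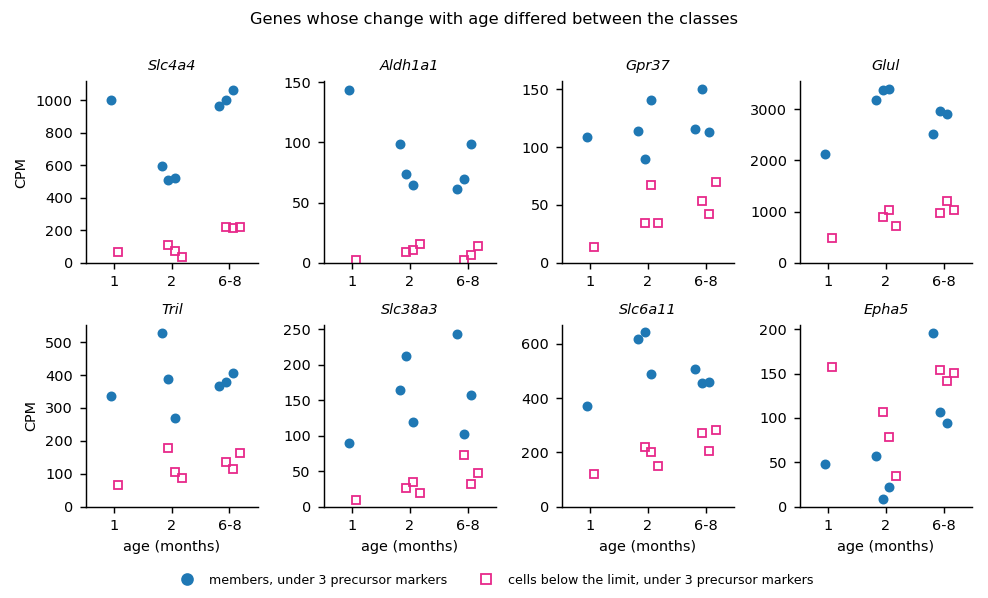
Levels (CPM) by age of 8 genes whose change between 1 month and 6–8 months differed between astrocyte-like members (filled circles) and below-limit cells (open squares), 1 symbol per experiment. Genes of the rule are left out. For Slc4a4, members lie at 1002 CPM at 1 month and 964 to 1064 at 6–8 months while below-limit cells go from 63.7 CPM at 1 month to 215 to 222 at 6–8 months; Epha5 is higher in members at 6–8 months than at 1 month.

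In all members, the same comparison with cells below the limit passed in 449 of 6129 genes (7.33%), 158 positive (2.58%) and 291 negative (4.75%). None passed without the experiment as a block (63 at an unadjusted p under 0.05), 18 passed without the third experiment at 6–8 months, 52 without the second and 730 without the first. Cells with 3 or more precursor markers were on both sides of that limit. Among genes with at least 50 CPM in members, the largest negative differences were those of Aldh1a1 (−2.64 ± 0.34) and Atp13a4 (−2.58 ± 0.49). Slc4a4 stood at −1.78 ± 0.15. Over other settings Aldh1a1 ran from −2.87 to −0.82, Atp13a4 from −2.76 to −0.70 and Slc4a4 from −2.03 to −0.52. Aldh1a1 and Slc4a4 each lost their call in 2 of 14 settings and Atp13a4 in 4 of 13. With a limit of 0.2% in place of 0.1%, 6 genes passed, and none of these 3 was among them. Against all other cells that passed, 77 of 6418 genes differed in their change (1.2%), 11 positive (0.171%) and 66 negative (1.03%). Among genes with at least 50 CPM in members, the largest were those of Gpr37 (−6.21 ± 0.67) and Car2, a carbonic anhydrase (−5.62 ± 0.47). The other cells are a mix of types, and a change within a type and a change of the mix cannot be told apart here. Gpr37 stood at 9.80 CPM in them at 1 month and at 219 to 636 at 6–8 months, against 73.3 and 27.1 to 70.7 in members. Without the experiment as a block none of the 6418 genes passed, with 484 at an unadjusted p under 0.05. Without the first experiment at 6–8 months 705 passed, without the second 26 and without the third 30. In astrocyte-like members against all other cells 110 of 6059 genes passed, 51 positive and 59 negative, and 26 of the 110 were among the 77. This last comparison was not run without the experiment as a block.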

How the data were processed

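Cells came from 8 libraries of 7 experiments. The authors mapped reads with cellRanger 3.0.2 to mm10 with reporter elements added, and deposited 1 merged matrix of UMI counts without normalization; the submitters' notes also name cutadapt 1.18 and Seurat. Barcode suffixes give the library. Members were chosen by the rule, and the members, gene lists and tests were chosen with earlier results of these data known. The rule's limit on markers of other types served in place of a doublet caller. Counts were summed per experiment (the 2 libraries of the first 2-month experiment together) and tested with R 4.3.3 and edgeR 4.0.16 (quasi-likelihood, TMM, one fit of all ages, Benjamini-Hochberg at 0.05) over genes detected in 20% or more of either age's cells. DESeq2 1.42.0 and other settings were alternatives. Coordinates are those of GENCODE M21 on GRCm38.

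The SE is the log2 change over the root of the F statistic. Named genes were the rule's genes, the 20 highest ratios to other cells, the 12 largest called changes in each direction with no overlap between ages and at least 50 CPM, up to 4 called genes of each list, the 8 largest called differences in each direction and the 20 highest Fano factors. The text gives part of these; ribosomal protein and mitochondrial genes were named only as groups, Xist and Y-linked genes were not named, and a few other genes are not reported here. Counts were also simulated with 200 genes changed by a log2 of 2. Every gene had the same dispersion, and no differences between experiments, chemistries or classes were put in. Of the changed genes tested, 91.5% were recovered between 6–8 months and 1 month (3740 genes) and 98.3% between 6–8 months and 2 months (3261 genes). In the comparison with below-limit cells 54.8% were recovered (4389 genes). Some unchanged genes were called in each comparison. The real pools differ in ways the simulation did not hold, so these shares do not give the recovery in them. The summed UMIs per experiment ranged from 92429 to 1728045 in members with under 3 precursor markers. Members and below-limit cells share animals and library, so the experiment was a block there. Intervals and limits on 0 counts (3 counts) cover counting error only. The experiments pooled animals, and p-values measure the spread between such pools. With a single pool at 1 month, no spread between 1-month pools enters, and that of the other ages was used.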

Additional observations from a re-analysis of the deposited data

Results flagged for a closer look

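The change from 1 month to 6–8 months differed between members and cells below the limit of the same libraries in 449 of 6129 genes (7.33%). Against all other cells it differed in 77 of 6418 (1.2%). With under 3 precursor markers on both sides, it differed from cells below the limit in 46 of 4389 (1.05%). Of the 449 and of the 46, 4 each were genes by which the rule selects. Without the experiment as a block no gene passed in any of these comparisons. These differences were tested with edgeR's interaction term. In the last of these comparisons the log2 differences of the genes named were 1.33 for Epha5, 1.26 for Gm11681, 0.93 for AC160336.1, −3.11 for Pid1, −2.74 for Aldh1a1, −2.23 for Plat, −2.04 for Hhatl, −1.89 for Arpp21, −1.85 for Gpr37, −1.84 for Olig1, −1.75 for Slc4a4, −1.46 for Slc38a3, −1.22 for Cyr61, −0.88 for Tril, −0.81 for Ednrb, −0.77 for Glul, −0.74 for Atp1b2 and −0.72 for Slc6a11. The genes by which the rule selects are left out here. Over other settings, Arpp21 lost its call in 7 of 12, Hhatl in 6 of 11, and Cyr61 and Ednrb in 5 of 12 each. Aldh1a1 lost it in 3 of 12 and Pid1 in 2 of 10. The 1-month value of each gene named is that of 1 experiment.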

How the results depend on the processing

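Counts of called genes are given by setting. For 6–8 months against 1 month in all members (0 genes), DESeq2 gave 3, no detection filter 152, Version 3 libraries alone 24, the sample without the library labelled GFP+tdT+ and GFP-tdT- 10, a limit of 0.2% 15, none of the 8 excluded genes 14, under 3 precursor markers 8, a limit without S100b 8, and leaving out an experiment 0 to 341, the highest without the first at 6–8 months. The members with under 3 precursor markers and the limit without S100b were added after the data had been seen, as were all settings within astrocyte-like members. For 6–8 months against 2 months in all members (1955), DESeq2 gave 1248, no filter 3859, a limit of 0.2% 333, none of the excluded genes 477, membership on thinned cells 257, under 3 precursor markers 480, a limit without S100b 433, and leaving out an experiment 893 to 2233. Scaling by total UMIs moved the median log2 change of all genes from 0.0049 to 0.398 there and split the calls into 1759 higher and 432 lower, against 1025 and 930 with TMM.

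For the difference from cells below the limit in all members (449), a limit of 0.2% gave 6, none of the excluded genes 40, no replicate block 0 (63 genes at an unadjusted p under 0.05), under 3 precursor markers 46, and leaving out an experiment 18 (the third at 6–8 months) to 730. For the difference from all other cells (77), total UMIs gave 48, no filter 282, the sample without the library labelled GFP+tdT+ and GFP-tdT- 171, a limit of 0.05% 51, no replicate block 0 (484 genes at an unadjusted p under 0.05), and leaving out an experiment 26 to 705, the highest without the first at 6–8 months.

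In astrocyte-like members, 6–8 months against 1 month (8) gave 2 with DESeq2, 19 with no filter, 73 with Version 3 libraries alone, 5 with a limit of 0.2%, of 0.05% or membership on thinned cells, and 3 to 31 leaving out an experiment (3 without the second or without the third at 6–8 months). Against 2 months (480) DESeq2 gave 247 and leaving out an experiment 241 to 483. The difference from below-limit cells (46) gave 28 with a limit of 0.2%, 12 with 0.05%, 0 with no replicate block and 12 (without the third at 6–8 months) to 77 leaving out an experiment. The share of members turned to 4.47 points higher at 6–8 months with a limit of 0.05%. In all members, the difference of eGFP from cells below the limit turned to −0.080 where none of the excluded genes was allowed. The causes were not tested. Of 109 single-gene values for the 8 genes called at 6–8 months against 1 month, 81 kept their call, 28 lost it and 0 changed sign. The experiment as a block changed the calls of the 3 comparisons between classes as given, and the comparisons between ages hold separate animals and were not paired.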
